A study of Saccharomyces cerevisiae with 8 samples.

Results

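The 37 genes described here encode the nuclear subunits of complex III (9 genes), complex IV (9) and ATP synthase (17, of which 3 are regulators), together with both cytochromes c (2 genes). They were chosen by the complex to which their product belongs and not by a measured value, and all 37 were among the 5449 genes tested, each read by 1 probe set (a group of short probes for 1 transcript) that is shared with no other gene. The arrays came from 3 strains of Saccharomyces cerevisiae in the MATa BY4741 background (his3Δ1 leu2Δ met15Δ ura3Δ). These were wild type cells (3 arrays), Δpde2 cells, in which the gene of the high affinity cAMP phosphodiesterase is replaced by KanMx (3 arrays), and Δpde2Δtpk3 cells, in which PDE2 is replaced by HIS3 and TPK3, a gene of a catalytic subunit of protein kinase A (PKA), by KanMx (2 arrays). All cells, wild type included, were grown in YPD with 4 mM cAMP for 24 h to the diauxic shift, so the arrays hold no culture without added cAMP. Both mutants are of different origin and carry different markers, and these differences cannot be told apart from the loss of TPK3. The comparisons ask how elevated cAMP signalling in Δpde2 cells, with and without Tpk3p, goes with the transcripts of the respiratory complexes.

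Complex III passes electrons from ubiquinol to cytochrome c, and complex IV passes them from cytochrome c to oxygen. Both pump protons across the inner mitochondrial membrane, and ATP synthase uses the return of these protons to make ATP. In yeast the catalytic core of complex IV, cytochrome b of complex III and part of the membrane sector of ATP synthase are encoded by mitochondrial DNA and were not analysed here. Yeast holds a pair of isoforms of cytochrome c (CYC1 and CYC7) and of the fifth subunit of complex IV (COX5A and COX5B), of which CYC1 and COX5A are known as the aerobic forms and CYC7 and COX5B as the forms favoured at low oxygen. When glucose runs low at the diauxic shift, cells turn from fermentation to respiration.

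Levels are given as quantile normalized log2 values, and a gene is called lower or higher where its p in limma, adjusted over all genes tested, was under 0.05. The deleted genes were low where the labels say so. PDE2 was at 9.13 to 10.73 in wild type and at 4.89 to 5.18 in both mutants, and TPK3 at 8.57 to 8.84 in wild type and Δpde2 cells and at 4.97 and 4.37 in Δpde2Δtpk3 cells. Wild type replicate 1 stood apart, with correlations across genes of 0.868 and 0.878 with the other wild type arrays against 0.992 between those. Genes used by MATα cells were higher in it than in the other wild type arrays by a median of 1.75, all 4 measured being higher, among them STE3 (9.22 against 7.60 and 7.57), while of the 5 a-cell genes measured STE6 was lower in it (9.25 against 10.67 and 10.63) and BAR1 (11.10 against 10.23 and 10.56), STE2 (12.04 against 11.58 and 11.71), MFA1 and MFA2 were higher. The 37 genes were lower in this array than in the other wild type arrays by a median of -0.40, whereas the median over all genes tested was 0.12. The shift was uneven, with 11 of the 37 genes under -0.5, the furthest being ATP19 (-1.54), COX7 (-1.13) and ATP20 (-0.93), while COX5A, ATP1, ATP2 and QCR2 lay within 0.1 and COX5B lay 0.37 higher. Counts are therefore given with and without this array. The methods give separate cultures for the arrays of both mutants, while no source used here says so of wild type, whose spread may therefore be technical in part.

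With Tpk3p present, Δpde2 cells held less transcript of several subunits of each complex than Δpde2Δtpk3 cells did. Of the 37 genes 11 were lower, against 7.41% of all genes tested, and none was higher, against 5.56%. The 11 were the cytochrome c gene CYC1, with CYT1 and RIP1 of complex III, COX4, COX5A, COX6 and COX8 of complex IV, and ATP1, ATP5, ATP7 and INH1 of ATP synthase. At an unadjusted p under 0.05 in limma 19 genes were lower and 0 higher, against 801 and 790 of all 5449 genes. The median log2 fold change of the 37 genes was -0.38, or 76.7% of the level in Δpde2Δtpk3 cells, beside a median of 0.016 over all genes tested, and it was under 0 for 34 of them (48.6% of all genes). On 32 of them every Δpde2 array lay below both Δpde2Δtpk3 arrays, an order held by 30.6% of all genes. Only COX4 passed with a fall of at least 2 fold, a count near the share of 2.5% of all genes. ATP19 (-1.15) fell by more than 2 fold without passing. Without wild type replicate 1, which is in neither strain but widens the shared estimate of spread, 24 of 37 genes were lower and 20.8% of all genes. Most calls were lost when a mutant array was left out, with 0, 3 and 0 of the 37 genes lower without Δpde2 replicate 1, 2 and 3 (17, 16 and 16 at an unadjusted p under 0.05), and 0 without Δpde2Δtpk3 replicate 1 or 2 (15 and 17). Calls over all genes fell too, from 404 lower to 38, 91 and 45 without a Δpde2 array and to 94 and 69 without a Δpde2Δtpk3 array.

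Against wild type more genes passed the test, of the 37 and of all genes alike. In Δpde2 cells 19 of the 37 genes were lower, against 21.9% of all genes tested, and 1, COX5B, was higher, against 19.5%. All 11 genes lower than in Δpde2Δtpk3 cells were among the 19, and the others were QCR10, COX9, ATP2, ATP3, ATP14, ATP16, ATP17 and ATP18. The median log2 fold change was -0.44, or 73.9% of the wild type level, beside 0.031 over all genes, and it was under 0 for 32 of them (48.2% of all genes). Of the 19 genes that passed as lower, CYT1, COX4, COX8 and INH1 were at least 2 fold lower, a count near the share of 9.07% of all genes. ATP19 (-1.13) fell by more than 2 fold without passing. Every Δpde2 array lay below every wild type array for 22 genes (30.9% of all genes) and above for COX5B, CYC7 and STF2 (31.1%). Of the 20 calls 12 survived the omission of any single array, namely CYT1, RIP1, CYC1, COX4, COX5A, COX5B, COX8, ATP1, ATP3, ATP5, ATP7 and INH1. Of the others, ATP2 and ATP16 were lost without Δpde2 replicate 1 or 3, QCR10 without wild type replicate 3 or Δpde2 replicate 2 or 3, ATP14 and ATP18 without wild type replicate 2 or 3 or any Δpde2 array, and ATP17 without any array but wild type replicate 1 (adjusted p up to 0.0607, 0.0695, 0.0755, 0.125, 0.0885 and 0.15); COX6 and COX9 were also lost without some arrays. With wild type replicate 1 left out, 32 genes were lower and 29.4% of all genes, and without Δpde2 replicate 1 and 3 there were 12 and 11. Both comparisons share the Δpde2 arrays, so they are not independent of each other.

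Between Δpde2Δtpk3 and wild type cells few genes of any kind passed with all arrays. None of the 37 genes was lower, against 1.69% of all genes tested. In that direction 0 had an unadjusted p under 0.05 in limma, against 658 of all 5449 genes. COX5B alone was higher, against 1.03% of all genes. Both counts are near these shares. The median log2 fold change was -0.026. Every Δpde2Δtpk3 array lay below every wild type array for COX5A, ATP2, ATP5 and INH1 (21% of all genes) and above for QCR8, CYC7, COX5B and STF2 (16%). Without wild type replicate 1 the median was -0.15, and 26 genes lay below both other wild type arrays (29.5% of all genes). Again none of the 37 passed as lower, against 9.08% of all genes, with 6 at an unadjusted p under 0.05. In that fit 2 genes, COX5B and CYC7, passed as higher, beside 478 of all 5449 genes.

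**Figure D1:**
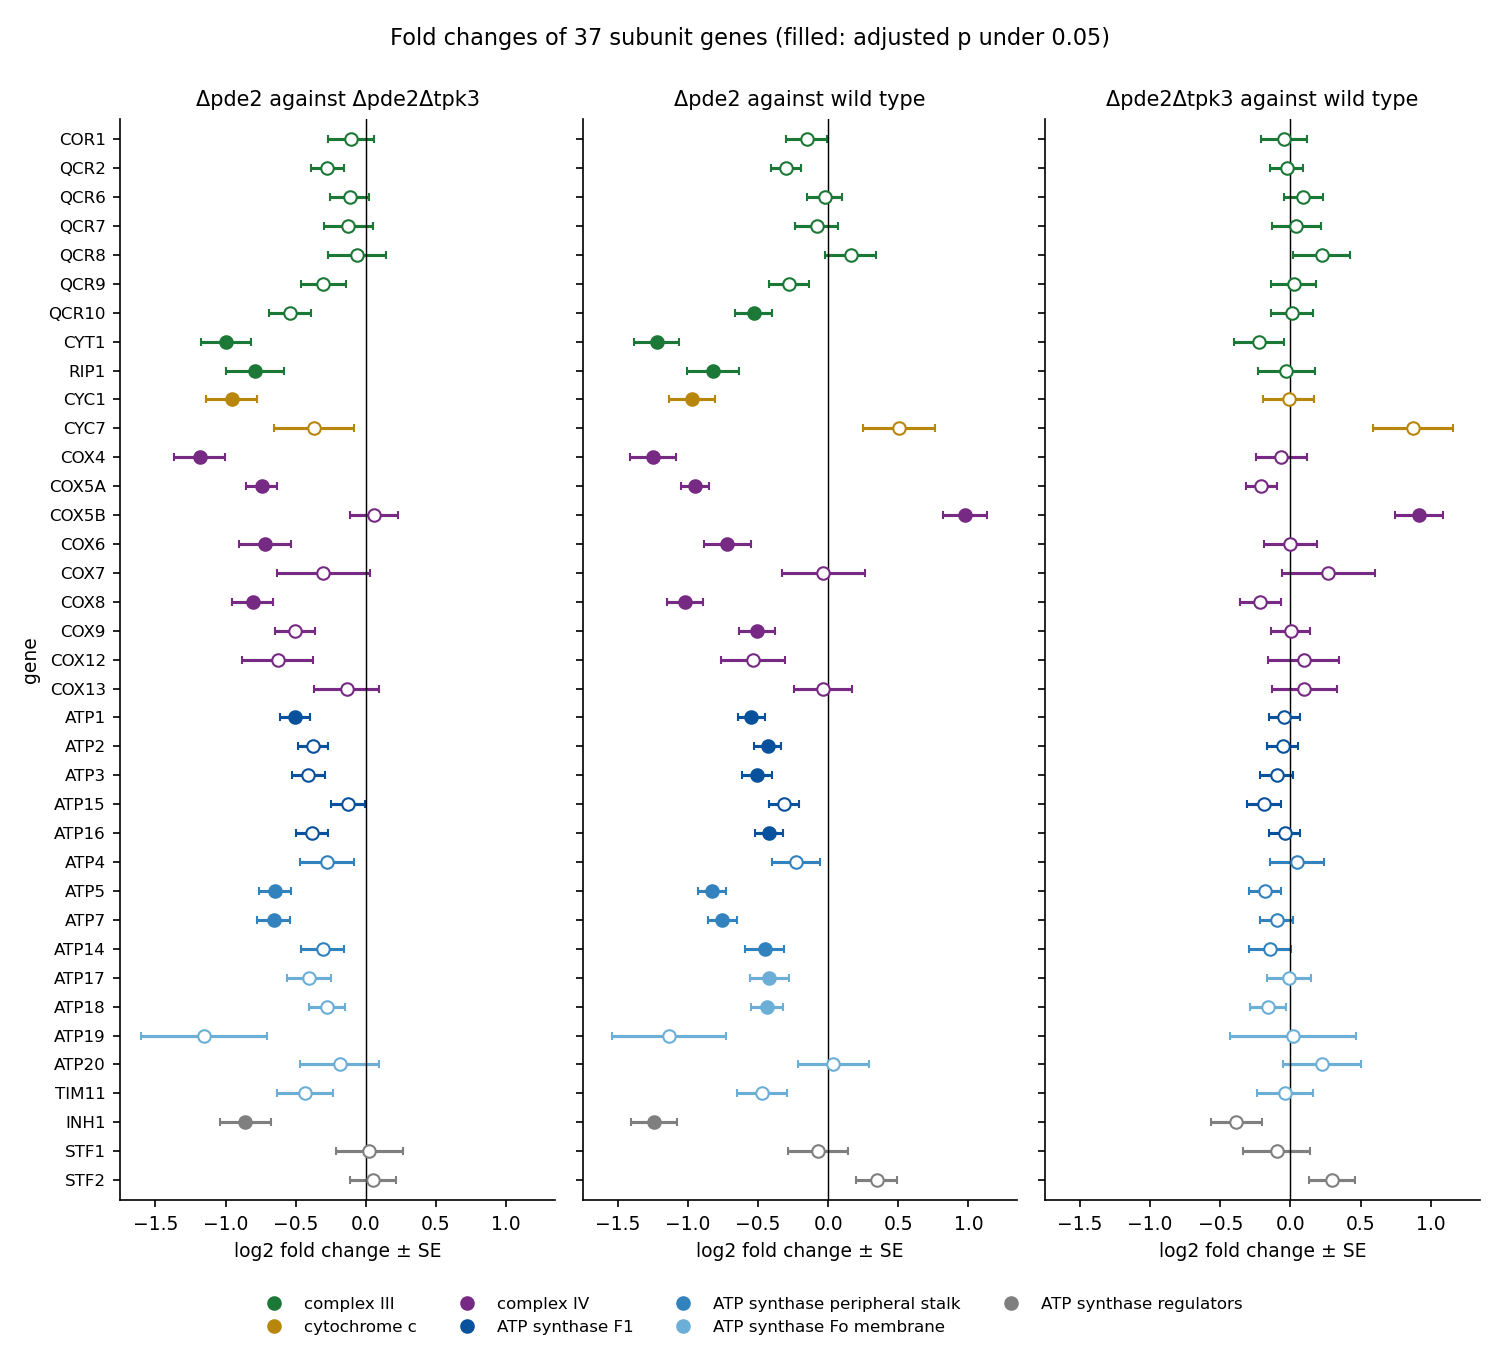
Log2 fold change (x axis, with 1 SE either side) of each of the 37 genes (y axis) in the 3 comparisons, coloured by complex; filled points had an adjusted p under 0.05. In both comparisons of Δpde2 cells most points lie left of 0 (34 and 32 of 37), while Δpde2Δtpk3 and wild type cells differ by a median of -0.026 and COX5B and CYC7 lie furthest to the right.

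In complex III the nuclear-encoded subunits that carry electrons, CYT1 and RIP1, were lower in Δpde2 cells, and of the others only QCR10 passed, against wild type. CYT1 (YOR065W) encodes cytochrome c1, which hands electrons to cytochrome c. It was at 12.65, 13.04 and 13.12 in wild type replicates 1 to 3, at 11.83, 11.66 and 11.65 in Δpde2 and at 12.86 and 12.56 in Δpde2Δtpk3 cells. The Δpde2 arrays were the 3 lowest, and the other strains overlapped. CYT1 was lower by a log2 fold change of -1.22 against wild type (SE 0.16, adjusted p = 0.00139) and of -0.998 against Δpde2Δtpk3 cells (SE 0.18, adjusted p = 0.0179). RIP1 (YEL024W) encodes the Rieske iron-sulphur protein, which takes electrons from ubiquinol. Its levels were 12.97, 13.38 and 13.43 in wild type, 12.42, 12.73 and 12.18 in Δpde2 and 13.23 on both Δpde2Δtpk3 arrays. Here too the Δpde2 arrays lay below all others, with log2 fold changes of -0.82 (SE 0.18, adjusted p = 0.0116) against wild type and -0.79 (SE 0.21, adjusted p = 0.0479) against Δpde2Δtpk3 cells.

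QCR10 (YHR001W-A), a small accessory subunit, was at 13.12, 13.43 and 13.47 in wild type, at 12.90, 12.85 and 12.67 in Δpde2 and at 13.36 and 13.34 in Δpde2Δtpk3 cells. Its log2 fold change of -0.53 against wild type passed (SE 0.13, adjusted p = 0.0175), that of -0.54 against Δpde2Δtpk3 cells did not (SE 0.15, adjusted p = 0.0560). The core proteins COR1 and QCR2, which face the matrix and carry no electrons, had -0.15 and -0.30 against wild type and -0.11 and -0.27 against Δpde2Δtpk3 cells and did not pass in either. The 4 remaining small subunits, QCR6, QCR7, QCR8 and QCR9, ranged from -0.28 to 0.16 against wild type and from -0.30 to -0.06 against Δpde2Δtpk3 cells, and none passed. In all, 2 of 9 genes were lower than in Δpde2Δtpk3 cells, with a median of -0.27, and 3 of 9 lower than in wild type, with a median of -0.28, beside 7.41% and 21.9% of all genes, so that few more of the 9 passed against wild type than that share. These counts were 4 and 7 without wild type replicate 1, beside 20.8% and 29.4%. CYT1 passed between both mutants only where the array left out was a wild type one, and RIP1 only when this was replicate 1 (with other arrays left out, adjusted p reached 0.0871 and 0.195).

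Of the isoforms of cytochrome c, CYC1 was lower in Δpde2 cells than in both other strains, and CYC7 passed in no comparison with all arrays. CYC1 (YJR048W), the major form in aerobic cells, was at 13.16, 13.37 and 13.30 in wild type, at 12.38, 12.55 and 11.98 in Δpde2 and at 13.31 and 13.21 in Δpde2Δtpk3 cells. The Δpde2 arrays lay below all others and the other strains overlapped. It was lower by -0.97 against wild type (SE 0.16, adjusted p = 0.00362) and by -0.96 against Δpde2Δtpk3 cells (SE 0.18, adjusted p = 0.0204), close to 51.1% and 51.6% of those levels. CYC7 (YEL039C), the minor form, was at 11.60, 12.42 and 12.62 in wild type, at 12.71, 12.63 and 12.80 in Δpde2 and at 13.20 and 12.97 in Δpde2Δtpk3 cells. Its arrays fell in the order wild type, Δpde2, Δpde2Δtpk3 without overlap, though the highest wild type array and the lowest Δpde2 array were 12.62 and 12.63. None of its log2 fold changes passed. They were 0.50 in Δpde2 cells (SE 0.26, adjusted p = 0.155) and 0.87 in Δpde2Δtpk3 cells (SE 0.29, adjusted p = 0.153) against wild type, and -0.37 between the mutants (adjusted p = 0.448). Without wild type replicate 1, the array in which CYC7 was lowest, the increase in Δpde2Δtpk3 cells (0.57, adjusted p = 0.022) and the difference between the mutants (-0.37, adjusted p = 0.031) passed, and the value in Δpde2 cells against wild type was 0.20 (adjusted p = 0.169).

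In complex IV the pair of isoforms moved in opposite directions. COX5A (YNL052W) was at 13.86, 13.89 and 13.87 in wild type, at 12.93, 13.0 and 12.83 in Δpde2 and at 13.71 and 13.62 in Δpde2Δtpk3 cells. The strains did not overlap, with Δpde2Δtpk3 cells between the others. It was lower in Δpde2 cells by -0.95 against wild type (SE 0.10, adjusted p = 0.00065) and by -0.74 against Δpde2Δtpk3 cells (SE 0.11, adjusted p = 0.013), while the difference of -0.21 between Δpde2Δtpk3 and wild type cells did not pass (adjusted p = 0.334). COX5B (YIL111W) was at 11.53, 10.99 and 11.33 in wild type, at 12.25, 12.17 and 12.36 in Δpde2 and at 12.15 and 12.25 in Δpde2Δtpk3 cells. Every mutant array lay above every wild type array, and the mutants overlapped. COX5B was higher than in wild type by 0.98 in Δpde2 cells (SE 0.15, adjusted p = 0.00282) and by 0.92 in Δpde2Δtpk3 cells (SE 0.17, adjusted p = 0.0428), with 0.06 between the mutants (SE 0.17, adjusted p = 0.862). The call in Δpde2 cells survived the omission of any single array (highest adjusted p 0.0177), whereas that in Δpde2Δtpk3 cells was kept only in the absence of wild type replicate 1 (adjusted p = 0.00357) and lost without any other array (up to 0.257). COX5B was thus the only one of the 37 genes called higher with all arrays, and the only one called in Δpde2Δtpk3 cells.

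The difference within each array between the isoforms is unaffected by a shift common to a whole array. It is affected by an uneven shift such as that of wild type replicate 1. Against the other wild type arrays, CYC1 and CYC7 lay at -0.18 and -0.92 in it, and COX5A and COX5B at -0.01 and 0.37. COX5A minus COX5B was 2.34, 2.89 and 2.54 in wild type, 0.69, 0.83 and 0.47 in Δpde2 and 1.56 and 1.37 in Δpde2Δtpk3 cells, and no strain overlapped another. The ratio of the isoforms was therefore 3.81 fold lower in Δpde2 cells than in the wild type (change -1.93, SE 0.19), 1.75 fold lower than in Δpde2Δtpk3 cells (-0.80, SE 0.14), and 2.18 fold lower in Δpde2Δtpk3 than in wild type cells (-1.12, SE 0.19). CYC1 minus CYC7 was 1.56, 0.95 and 0.68 in wild type, -0.34, -0.08 and -0.81 in Δpde2 and 0.11 and 0.24 in Δpde2Δtpk3 cells, again without overlap. The corresponding ratios were 2.77 fold lower (-1.47, SE 0.34), 1.5 fold lower (-0.59, SE 0.22) and 1.85 fold lower (-0.89, SE 0.27). Of the wild type arrays, replicate 1 had the largest CYC1 minus CYC7 and the smallest COX5A minus COX5B. Its inclusion therefore enlarges the changes against wild type for cytochrome c and lessens those for COX5A and COX5B. By an exact two-sided permutation test over arrays, p was 0.1 for Δpde2 against wild type and 0.2 for the other comparisons in both pairs, in each case the smallest the number of arrays allows, and 0.2 after adjustment over the 6 comparisons.

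**Figure D2:**
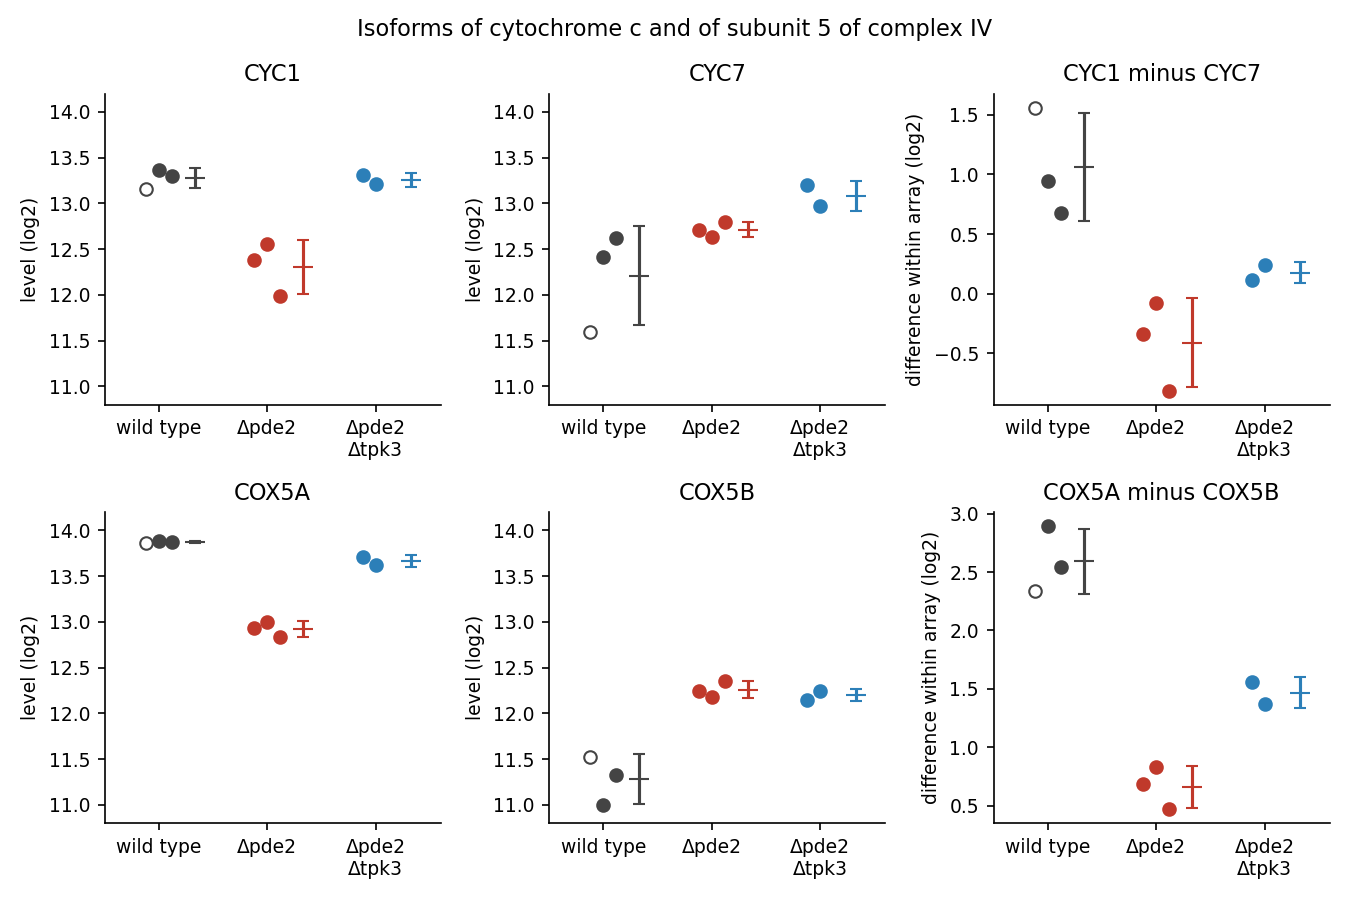
Level (log2) of CYC1, CYC7, COX5A and COX5B on each array and the difference within each array for both pairs, by strain; points are arrays, the open point is wild type replicate 1, and dashes with bars are the mean and SD. COX5A lies lowest in Δpde2 cells, COX5B is higher in both mutants than in wild type, and the difference for COX5A minus COX5B falls from 2.34 to 2.89 in wild type to 0.47 to 0.83 in Δpde2 cells.

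COX4 (YGL187C), a subunit of the complex needed for its assembly, had the largest fall of the 37 genes in both comparisons of Δpde2 cells with all arrays in the fit. It was at 13.13, 13.62 and 13.59 in wild type, at 12.23, 12.33 and 12.04 in Δpde2 and at 13.37 and 13.40 in Δpde2Δtpk3 cells. The Δpde2 arrays lay below all others, by -1.25 against wild type (SE 0.16, adjusted p = 0.00135) and -1.18 against Δpde2Δtpk3 cells (SE 0.18, adjusted p = 0.0138), 42.1% and 44.0% of those levels. COX8 (YLR395C), a small subunit, was at 12.99, 13.28 and 13.30 in wild type, at 12.23, 12.24 and 12.05 in Δpde2 and at 13.06 and 12.89 in Δpde2Δtpk3 cells. It too was lowest in Δpde2 cells, with -1.02 against wild type (SE 0.13, adjusted p = 0.00128) and -0.81 against Δpde2Δtpk3 cells (SE 0.15, adjusted p = 0.0184).

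Among the other subunits of complex IV, COX6 was lower than in both strains (-0.72 in each, adjusted p = 0.0135 against wild type and 0.0483 against Δpde2Δtpk3 cells) and COX9 only passed against wild type (-0.51, adjusted p = 0.0173, beside -0.51 and 0.0588). COX12, with a larger SE, did not pass (-0.53 and -0.63, adjusted p = 0.0958 and 0.15). COX7 and COX13 were nearest to 0, at -0.03 and -0.04 against wild type and -0.31 and -0.14 against Δpde2Δtpk3 cells. These were among the genes lowest in wild type replicate 1. Without it COX12, COX7 and COX13 were lower than in wild type (-0.81, -0.41 and -0.28, adjusted p = 0.0002, 0.00296 and 0.0188). In all, 4 of 9 genes were lower than in Δpde2Δtpk3 cells (median -0.63) and 5 of 9 lower than in wild type (median -0.53), beside 7.41% and 21.9% of all genes, and without wild type replicate 1 these counts were 7 and 8, beside 20.8% and 29.4%. Between both mutants COX6 passed only without wild type replicate 1, COX8 only where a wild type array was left out, and COX4 and COX5A where a wild type array or Δpde2 replicate 2 was left out (in the same order, adjusted p otherwise reached 0.182, 0.0885, 0.083 and 0.0756). Against wild type COX6 was lost without Δpde2 replicate 1 or 3 (adjusted p up to 0.0535) and COX9 without wild type replicate 3 or any Δpde2 array (up to 0.0752).

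**Figure D3:**
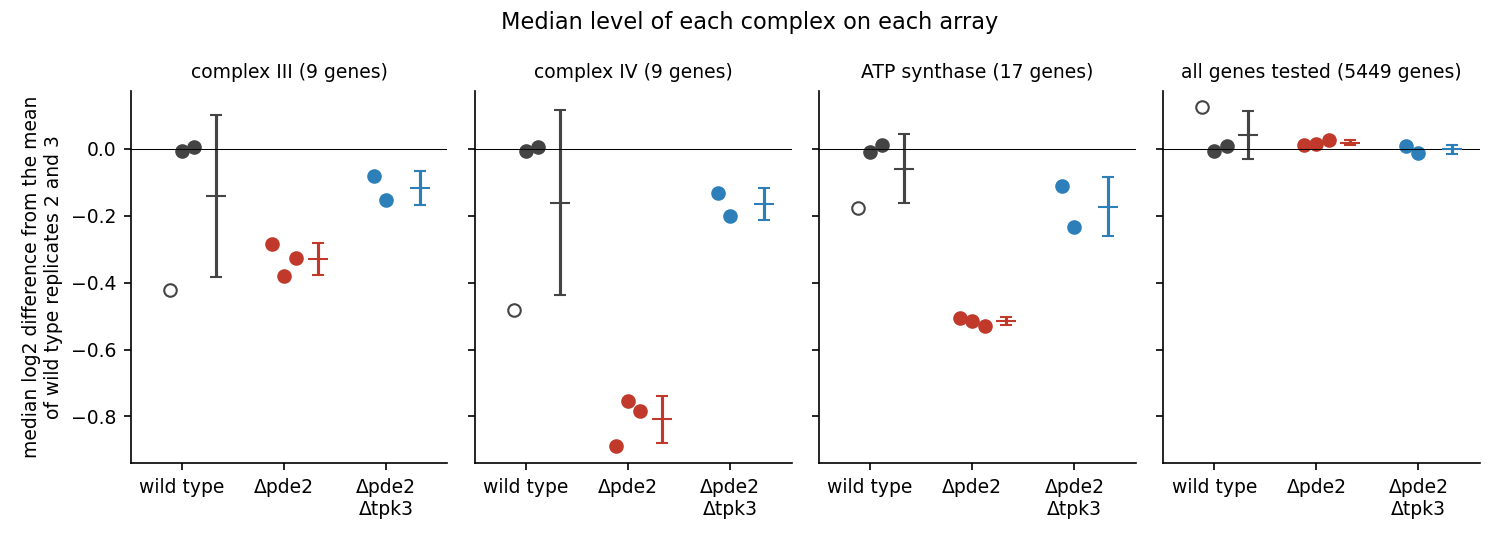
Median log2 difference of each complex from the mean of wild type replicates 2 and 3 (y axis) on each array, by strain, with all 5449 genes tested at the right; points are arrays, the open point is wild type replicate 1, and dashes with bars are the mean and SD of the arrays of a strain. Complex IV lies lowest in Δpde2 cells (-0.89 to -0.75), ATP synthase at -0.53 to -0.50 and complex III at -0.38 to -0.28, where wild type replicate 1 is at -0.42, -0.48 and -0.18 for complexes III, IV and ATP synthase.

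In ATP synthase calls were found in the catalytic head, the peripheral stalk, the membrane sector and among the regulators. Of 17 genes, 4 in Δpde2 cells were below their level in Δpde2Δtpk3 cells and 10 below wild type, with medians of -0.38 and -0.44. None was higher, with 0 and 1 at an unadjusted p under 0.05, against 790 and 1369 of all 5449 genes. Over all genes 7.41% and 21.9% were lower. Omitting wild type replicate 1 gave 11 and 16, beside 20.8% and 29.4% of all genes. In the catalytic head F1, which makes ATP, ATP1 (subunit alpha) was lower than in both strains, by -0.55 against wild type (SE 0.10, adjusted p = 0.00459) and -0.50 against Δpde2Δtpk3 cells (SE 0.11, adjusted p = 0.0293). ATP2 (beta), ATP3 (gamma) and ATP16 (delta) were lower than in wild type (-0.43, -0.51 and -0.42) and had adjusted p of 0.067, 0.0657 and 0.0687 between the mutants, at -0.38, -0.41 and -0.38. ATP15 (epsilon) passed in neither (-0.32 and -0.13). Over the 5 subunits of F1 the log2 fold change against wild type ranged from -0.55 to -0.32.

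In the peripheral stalk, which holds the head still against the rotor, ATP5 and ATP7 changed most. ATP5 (YDR298C), the subunit known as OSCP, was at 13.61, 13.71 and 13.70 in wild type, at 12.85, 12.93 and 12.74 in Δpde2 and at 13.51 and 13.47 in Δpde2Δtpk3 cells. ATP7 (YKL016C), subunit d, was at 13.64, 13.80 and 13.77 in wild type, at 12.93, 13.08 and 12.93 in Δpde2 and at 13.67 and 13.60 in Δpde2Δtpk3 cells. For both genes the Δpde2 arrays lay below all others. The log2 fold changes against wild type were -0.83 (SE 0.10, adjusted p = 0.0011) for ATP5 and -0.75 (SE 0.10, adjusted p = 0.00172) for ATP7. Against Δpde2Δtpk3 cells they were -0.65 (SE 0.11, adjusted p = 0.0175) and -0.66 (SE 0.12, adjusted p = 0.0176). ATP14 (subunit h) passed against wild type alone (-0.45, adjusted p = 0.034) and ATP4 (subunit b) in neither comparison (-0.23 and -0.28).

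The 5 membrane subunits of Fo gave no call between the mutants, with 2 at an unadjusted p under 0.05 in limma, and ATP17 and ATP18 were lower than in wild type (-0.42 and -0.44, adjusted p = 0.0488 and 0.0224). ATP19 (YOL077W-A), subunit k, which is found with dimers of the enzyme, had the largest shift of the 37 genes in wild type replicate 1. It was at 11.39, 12.92 and 12.93 in wild type, at 11.41, 11.40 and 11.03 in Δpde2 and at 12.41 and 12.45 in Δpde2Δtpk3 cells, so that wild type replicate 1 lay among the Δpde2 arrays. With all arrays its log2 fold changes of -1.15 against Δpde2Δtpk3 cells (SE 0.45, adjusted p = 0.141) and -1.13 against wild type (SE 0.40, adjusted p = 0.0587) did not pass, although the Δpde2 arrays did not overlap those of Δpde2Δtpk3 cells. After leaving out wild type replicate 1 they were -1.15 (adjusted p = 0.000853) and -1.65 (adjusted p = 6.25e-05), the latter the largest of the 37 genes. ATP20 (subunit g) and TIM11 (subunit e), which also act in the dimer, were at 0.04 and -0.47 against wild type and did not pass with all arrays, whereas without that array they did (-0.27 and -0.67, adjusted p = 0.0294 and 0.000675). Of the calls between the mutants in ATP synthase, ATP5, ATP7 and INH1 were kept only where a wild type array was left out and ATP1 only where this was replicate 1 or 2 (with other arrays left out, adjusted p reached 0.0887, 0.0894, 0.13 and 0.13).

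The regulators of ATP synthase divided. INH1 (YDL181W) encodes the inhibitor that binds F1 and stops it from hydrolysing ATP. It was at 13.25, 13.38 and 13.45 in wild type, at 12.27, 12.31 and 11.77 in Δpde2 and at 12.99 and 12.96 in Δpde2Δtpk3 cells, and the strains did not overlap. INH1 was lower in Δpde2 cells by -1.24 against wild type (SE 0.16, adjusted p = 0.00142) and -0.86 against Δpde2Δtpk3 cells (SE 0.18, adjusted p = 0.0277). Its difference of -0.38 between Δpde2Δtpk3 and wild type cells, the lowest of the 37 genes in that comparison, did not pass (adjusted p = 0.292). STF1 (YDL130W-A), a second inhibitor related to INH1, was at 12.62, 13.31 and 13.38 in wild type, at 13.03, 12.92 and 13.14 in Δpde2 and at 13.13 and 12.88 in Δpde2Δtpk3 cells. All strains overlapped and no difference passed (-0.07 against wild type and 0.02 between the mutants). STF2 (YGR008C), named for stabilising the inhibited enzyme, was at 12.81, 13.18 and 13.31 in wild type, at 13.43, 13.38 and 13.53 in Δpde2 and at 13.42 and 13.37 in Δpde2Δtpk3 cells. Every mutant array lay above every wild type array, with log2 fold changes of 0.35 and 0.29 that did not pass (adjusted p = 0.0956 and 0.35). Without wild type replicate 1 STF1 was lower than in wild type (-0.31, adjusted p = 0.0418) and STF2 stayed short of the threshold (0.20, adjusted p = 0.0873).

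**Figure D4:**
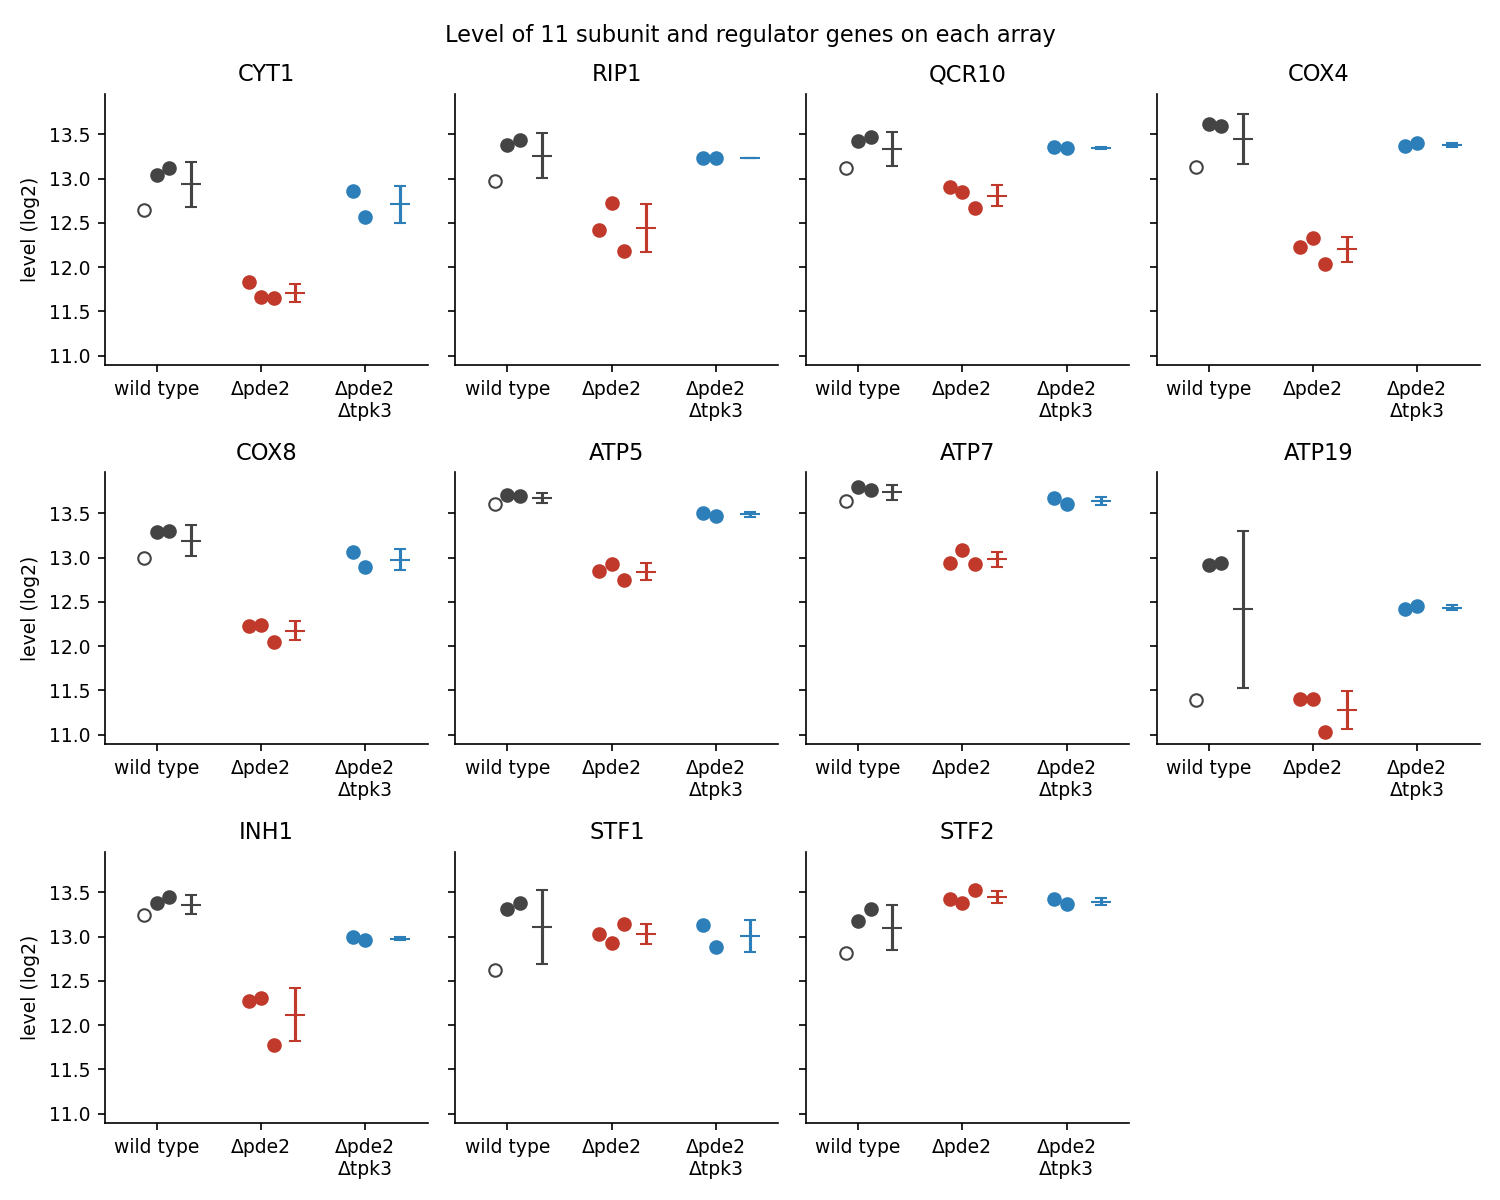
Level (log2) of 11 genes of complexes III, IV and ATP synthase on each array, by strain; points are arrays, the open point is wild type replicate 1, and dashes with bars are the mean and SD. For CYT1, RIP1, QCR10, COX4, COX8, ATP5, ATP7 and INH1 the 3 Δpde2 arrays lie below all others, for ATP19 wild type replicate 1 lies among them, and STF1 and STF2 lie at 12.62 to 13.53 throughout.

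Neighbouring genes of the same process were counted in the same way, beside the same shares of all genes (7.41% lower between the mutants and 21.9% lower than in wild type). All 4 genes of complex II, which feeds electrons from succinate to ubiquinone, were lower in Δpde2 cells than in either strain, led by SDH2 (-1.24 against Δpde2Δtpk3 cells and -1.40 against wild type) and SDH1 (-0.84 and -0.99). Of 37 genes for the assembly of these complexes, 11 were lower than in Δpde2Δtpk3 cells and none higher. At an unadjusted p under 0.05 these were 17 and 0, beside 801 and 790 of all 5449 genes. Against wild type 17 were lower and 1 higher. Without wild type replicate 1, 26 were lower than in Δpde2Δtpk3 cells and 23 than in wild type (20.8% and 29.4% of all genes). The most changed were NCA3, which acts on the mitochondrial mRNA of ATP synthase subunits (-2.81 and -4.94), COX10, which makes haem O for complex IV (-1.40 against Δpde2Δtpk3 cells), and CBP4, an assembly factor of complex III (-1.41 against wild type). With all arrays NCA3 was also the 1 assembly gene lower in Δpde2Δtpk3 than in wild type cells (-2.13, adjusted p = 0.0228). Without wild type replicate 1 there were 2, beside 9.08% of all genes. Of 7 genes for regulators that respond to haem, oxygen or carbon source and act on these genes, none passed between the mutants with all arrays. At an unadjusted p under 0.05 there were 2. HAP1 (-0.76), MOT3 (-0.73) and ROX1 (-0.56) were lower in Δpde2 cells than in the wild type, a count too small to set apart from that share. Without wild type replicate 1 the counts were 3 between the mutants and 4 against wild type, beside 20.8% and 29.4% of all genes. HAP1 activates CYC1 and CYC7, and in strains derived from S288C such as BY4741 it carries a Ty insertion that lowers its activity. ROX1 and MOT3 repress hypoxic genes, COX5B being a known target of ROX1. In Δpde2Δtpk3 cells, where COX5B was at 0.92 against wild type, ROX1 was at -0.09 (adjusted p = 0.574). Whether ROX1 acted on COX5B in these cells was not tested. HAP4, the limiting part of the activator of respiratory genes, was at -0.46 between the mutants and -0.16 against wild type. Neither passed with all arrays. HAP4 was lowest in wild type replicate 1 (11.88, against 13.20 and 12.98 in replicates 2 and 3). Both other wild type arrays lay above every Δpde2 array (12.59, 12.56 and 12.43). Without wild type replicate 1 the log2 fold change of HAP4 in Δpde2 cells against wild type was -0.56, the median of the 7 regulators.

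The 37 genes were among the brightest on the arrays, their mean signal lying above that of 83.1% to 99.3% of genes with a median of 96.5%. The largest normalized value on any array was 14.70. Whether the brightest probe sets respond in proportion to the transcript was not tested.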

How the data were processed

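Transcripts of 8 Affymetrix Yeast Genome 2.0 arrays were compared. The authors deposited one table of values that its range shows to be on a log2 scale; how probes were summarised and arrays normalized is not given in the sources used here. First quartiles of the deposited arrays ran from 9.00 to 9.38, and the values were quantile normalized in limma 3.58.1 (R 4.3.3). Of 5814 probe sets 5498 pair with 1 gene and 316 with none in the annotation used, and where a gene had several probe sets (47 genes) the brightest on average was used, giving 5449 genes. One limma fit of the 3 strains (5 residual degrees of freedom) was used, with Benjamini-Hochberg adjustment over all 5449 genes. Isoform differences were compared with an exact permutation test. The code was tested on simulated data.

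The members and gene lists were chosen with earlier results of these data known. Values on every array are given for both isoform pairs, INH1, STF1, STF2, any gene called higher, and, in each complex, the 3 genes most changed between Δpde2 and either other strain. Correlations of residuals between same-numbered arrays ran from -0.0915 to 0.194, which over so few arrays cannot decide whether the numbers pair them. Per the methods each mutant was cultured in triplicate, and 2 arrays of Δpde2Δtpk3 cells were analysed here. The number of arrays limits the precision. Alternatives tried were median centring, values as deposited, a filter on dim genes, the mean of probe sets, only the strains compared, array weights, trend and robust moderation, a replicate block, each array left out, and normalization without wild type replicate 1.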

Additional observations from a re-analysis of the deposited data

How the results depend on the processing

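Between Δpde2 and Δpde2Δtpk3 cells the count of 11 lower genes (7.41% of all genes) moved in most settings with the share of all genes lower. With trend and robust moderation, however, the count was 16 while the share was 7.96%, and with dim genes left out it was 16 (11.8%). It became 22 with only the arrays of both strains (19.7% of all genes) and 20 with array weights (15.6%). With wild type replicate 1 left out before normalization it was 24 (20.8%). With single arrays left out it ranged from 0 to 24 (0.697% to 20.8%). The count of 1 gene lower by at least 2 fold became 2 with median centring, only the arrays of both strains, array weights or wild type replicate 1 left out before normalization, and 0 to 2 with single arrays left out. With a replicate block both counts were 0, as was the count of lower genes over all 5449, with 19 of the 37 at an unadjusted p under 0.05 in limma. Whether the numbers pair the arrays was not settled. Residuals of same-numbered arrays had low correlations, but the arrays are too few for this to decide it. Against wild type the 19 lower genes of Δpde2 cells (21.9% of all genes) became 32 with array weights (34.4%) or wild type replicate 1 left out before normalization (29.4%). They became 14 with the block (18.5%) and 11 to 32 with single arrays left out (14.5% to 29.4%). The 4 genes lower by at least 2 fold became 7 with median centring. In Δpde2Δtpk3 cells the 1 higher gene became 0 with median centring, values as deposited, only the arrays of both strains or the block, 2 with wild type replicate 1 left out before normalization, and 0 to 2 with single arrays left out, and the 0 lower genes became 1 (ATP19) with wild type replicate 1 left out before normalization. The median of the 37 genes in Δpde2Δtpk3 cells against wild type changed sign without wild type replicate 2, wild type replicate 3 or Δpde2Δtpk3 replicate 2 (range with single arrays left out -0.1474 to 0.0559). The medians of the 37 genes in both comparisons of Δpde2 cells kept their sign in every alternative. The changes of the isoform differences kept theirs in each alternative for which they were computed. These were median centring, values as deposited, the mean of probe sets, each array left out, and normalization without wild type replicate 1. Apart from the arrays left out, the cause of these shifts was not tested.

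None of the differences of named genes that changed direction had passed with all arrays and the main settings, and of the changed values only that of ATP19 with wild type replicate 1 left out before normalization passed (adjusted p = 0.04999). Between the mutants STF1 turned to -0.0194 with median centring and -0.0731 with the block and ranged from -0.0992 to 0.1489 with single arrays left out, and STF2 turned to -0.0155 and -0.02 under the first settings. In Δpde2 cells against wild type STF1 ranged from -0.3139 to 0.0658 with single arrays left out and passed at -0.3236 with array weights (adjusted p = 0.008008). In Δpde2Δtpk3 cells against wild type QCR10 and ATP19 turned to -0.0233 and -0.025 with median centring, -0.0169 and -0.0186 as deposited, -0.1054 and -0.479 with array weights, and -0.0983 and -0.4913 with wild type replicate 1 left out before normalization. With single arrays left out of this comparison QCR10 ranged from -0.0984 to 0.0781, ATP19 from -0.4929 to 0.2783, RIP1 from -0.1724 to 0.0568, CYC1 from -0.0719 to 0.0407, COX4 from -0.225 to 0.0223 and STF1 from -0.3387 to 0.041. Where 1 Δpde2Δtpk3 array remained, its spread was taken from the other strains. Counts of genes without overlap after leaving out wild type replicate 1 were added after seeing the data.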
